A study of Mus musculus with 12 samples.

Results

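Most solute carrier (Slc and Slco) and ATP-binding cassette (Abc) genes encode membrane proteins that move nutrients, ions, bile acids, drugs and lipids into and out of cells. The lists of regions with differing DNA methylation that the authors deposited for mouse liver held 43 regions, of 1711 in all, whose nearest transcription start site (TSS) belonged to such a gene. They were taken by gene symbol alone, namely Slc or Slco followed by a digit, or Abc followed by a letter from a to g and a digit. Whether each gene with such a symbol encodes a transporter was not checked. The 43 regions named 35 genes, each a protein-coding gene in RefSeq. By list, 5 of 107 regions were members in normal liver, 0 of 57 in non-tumor liver and 38 of 1547 in liver tumors.

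The regions came from reduced-representation bisulfite sequencing, which reads methylation at CpG sites in short fragments cut by the enzyme MspI at CCGG. Each list set 3 second-generation (F2) male C3H/HeN mouse liver samples of the arsenite line (AA), descended from F1 mice exposed to arsenite in the womb, against 3 of the control line (CC). The comparisons were AAN against CCN for normal liver, AATn against CCTn for non-tumor liver and AATt against CCTt for tumors. The samples of AAN, AATn, AATt and CCTn were 74 weeks old, while CCN and CCTt belonged to an earlier deposit and entered only through the authors' comparisons. In the normal liver and tumor lists, which hold all members, a difference between lines and a difference between deposits therefore cannot be told apart. The labels state neither the arsenite dose nor whether separate mice gave the samples of a group. The titles of the AATn and AATt samples carry the same numbers, which differ within each group. These non-tumor and tumor samples may thus come from the same mice, which the labels do not state. Each value is a difference between group methylation levels in percentage points, with no value per sample, so it carries no replicate error and no test over samples could be made. The depth behind the values is unknown. Positive values are taken to mean more methylation in the arsenite line than in the control line, although neither the labels nor the files define the sign rule of the lists. In bulk tissue a change in the mixture of cells and a change within cells cannot be told apart, and the lists hold no expression values by which the tissue labels could be checked.

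In the liver, transporters of the hepatocyte take up bile acids, organic ions and amino acids from blood, and ABC pumps export bile acids, conjugated drugs and lipids into bile or back into blood. Solute carriers work as facilitators or as exchangers and cotransporters driven by ion gradients, whereas ABC transporters use ATP. Several of the genes below are best known from other organs such as brain, kidney or skin. Methylation of CpGs close to a TSS is often low in active genes, while the relation of distant CpGs to a gene is in general unknown, and the gene with the nearest TSS need not be the one a region acts on.

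The sequence just upstream of the TSS is shown for 4 of the 5 tumor members within 3 kb of one, Abca12, Slc35g2, Slc15a2 and Slc6a4, because such regions were assigned to a gene over a short distance. The window of the remaining one, Slc6a7, and that of Slc15a3, the normal liver member within 3 kb, are not shown. Each line gives the 250 bases before the gene start on the strand of the gene, from RefSeq on build GRCm38.p6, with CpG dinucleotides in capitals. The windows lay at chr1:71414911-71415160 on the minus strand for Abca12, chr9:100571086-100571335 on the minus strand for Slc35g2, chr16:36784963-36785212 on the minus strand for Slc15a2 and chr11:76998347-76998596 on the plus strand for Slc6a4.
Abca12: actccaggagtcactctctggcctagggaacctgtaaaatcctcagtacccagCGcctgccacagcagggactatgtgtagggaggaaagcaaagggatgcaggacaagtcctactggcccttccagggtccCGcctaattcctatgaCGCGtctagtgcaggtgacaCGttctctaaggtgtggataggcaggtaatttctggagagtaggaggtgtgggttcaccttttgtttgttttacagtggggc
Slc35g2: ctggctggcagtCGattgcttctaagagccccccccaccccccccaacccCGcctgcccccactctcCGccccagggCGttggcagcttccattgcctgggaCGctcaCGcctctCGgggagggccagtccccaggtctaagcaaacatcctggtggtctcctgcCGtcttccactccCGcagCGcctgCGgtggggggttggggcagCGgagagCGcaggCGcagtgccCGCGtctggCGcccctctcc
Slc15a2: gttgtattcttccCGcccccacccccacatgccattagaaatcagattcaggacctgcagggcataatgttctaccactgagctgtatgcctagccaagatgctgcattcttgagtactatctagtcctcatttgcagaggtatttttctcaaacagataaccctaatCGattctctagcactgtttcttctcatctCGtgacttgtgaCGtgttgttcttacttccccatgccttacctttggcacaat
Slc6a4: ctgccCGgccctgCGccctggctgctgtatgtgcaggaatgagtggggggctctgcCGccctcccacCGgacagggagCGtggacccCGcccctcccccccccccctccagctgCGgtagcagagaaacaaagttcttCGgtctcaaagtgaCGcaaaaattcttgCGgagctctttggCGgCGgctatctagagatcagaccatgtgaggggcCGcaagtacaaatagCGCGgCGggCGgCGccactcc
The Abca12 window held 5 CpGs and the Slc15a2 window 4, against a median of 6 over all 32851 RefSeq windows of the same length. The Slc6a4 window held 18 CpGs and that of Slc35g2 17, which 21.7% and 23.5% of all windows matched or exceeded, in that order. The MspI motif CCGG reads the same on both strands. It was found 2 times in the Slc6a4 window and 0 times in the other windows shown. Over the 25 windows of listed transporter genes, the median was 13 CpGs and 60% held CCGG. Over all windows these values were 6 CpGs and 47.1%, and the difference was not tested. The listed regions themselves lay outside the windows shown. They lay 232 bases from that of Abca12, 1025 from that of Slc35g2, 1545 from that of Slc15a2 and 2543 from that of Slc6a4. None of the 43 members overlapped a promoter window of 250 bases before to 50 after a RefSeq start, which 3 of the 107 regions in normal liver and 31 of the 1547 in tumors did; such windows were at hand for 24 of the 35 member genes.

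Transporter regions made up 4.67% of the list in normal liver and 2.46% of the list in tumors, while transporter genes made up 2.005% of the 21900 protein-coding genes in RefSeq. With 0 of 57 regions, the non-tumor list allows a share of up to 5.26%, a limit that covers counting error only. In tumors, 30 of the 439 protein-coding transporter genes (6.83%) were named as nearest to a region, against 5.06% of all protein-coding genes. When a gene counted as listed only if its own span held a region, the order turned over, with 2.28% of transporter genes and 2.74% of all protein-coding genes. In normal liver, 5 of the 439 transporter genes were named (1.14%), against 0.420% of all protein-coding genes. Which genes the fragments covered is not known here, so these shares describe the lists and were not tested.

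The positive share of the members is set beside that of the whole list as a description, with no test. In normal liver, 1 of 5 transporter regions was positive, a share of 20% (exact 95% Clopper-Pearson interval 0.505% to 71.6%), against 30.8% of all regions of that list. In tumors, 29 of 38 were positive, a share of 76.3% (59.8% to 88.6%), against 68.7% of all tumor regions. The positive tumor members had a median of 22.8 points and the negative ones of -22.0 points, against 22.9 and -23.1 points in the whole tumor list. Intervals cover counting error only and take regions as independent, although the 38 tumor members named 30 genes. If the authors' sign ran the other way, 23.7% of the tumor members and 80% of the normal liver members would be positive. The positive tumor members reached 30.6 points, against 47.9 points in the whole list, so the largest positive differences of the tumor list lay elsewhere. Of all 43 members, 11 (25.6%) lay under 21 points, close to the 20 points below which nothing was listed, against 20.3% of all 1711 regions. The plot of members by family group shows these values.

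**Figure D1:**
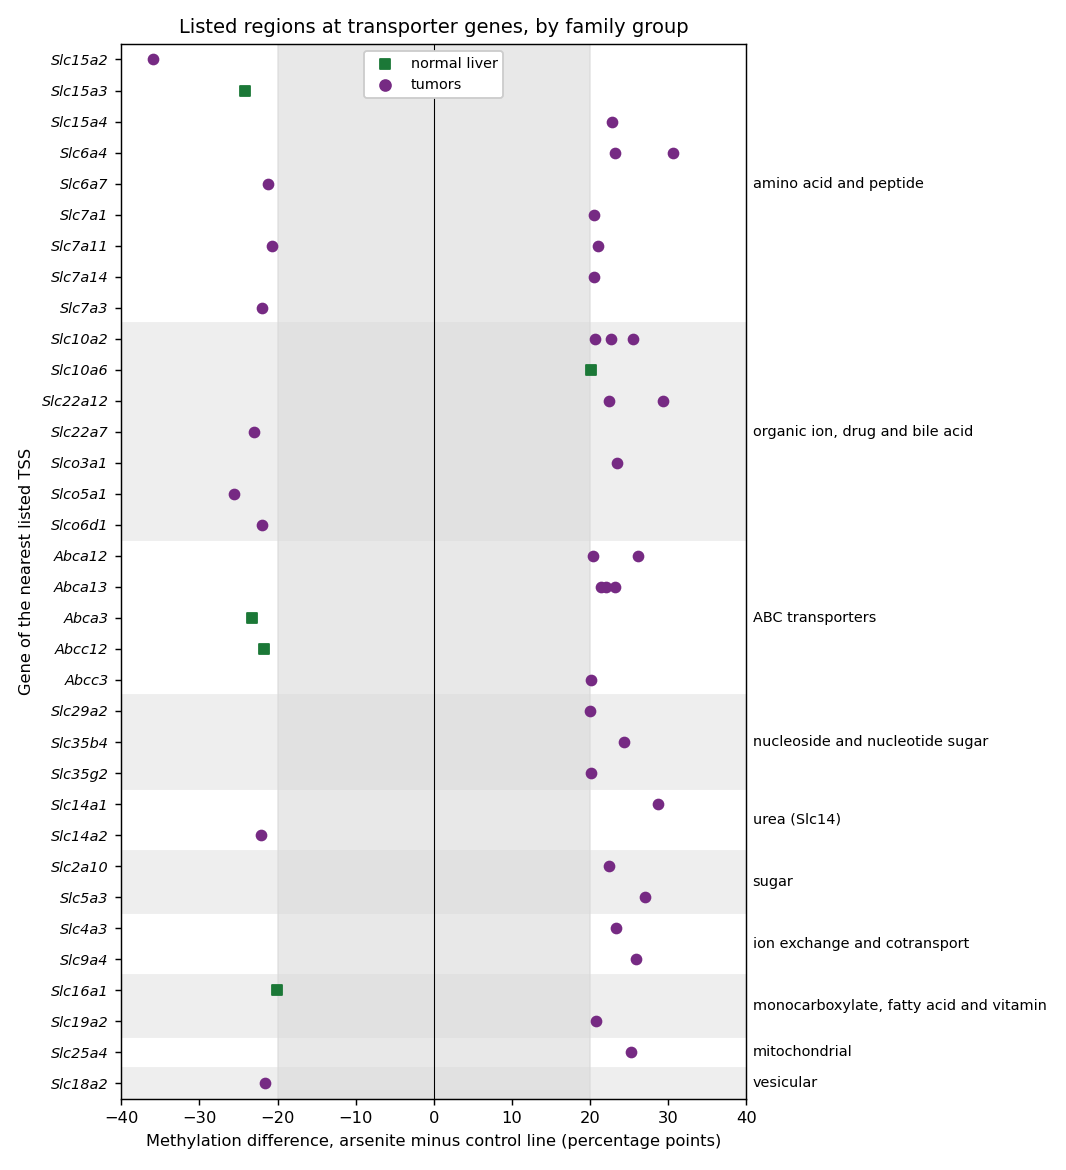
Methylation differences (arsenite minus control line, percentage points, horizontal axis) of 42 of the 43 regions, 1 row per nearest gene, ordered by family group; green squares are normal liver and purple circles are tumors, and the dark grey band marks the 20 points below which nothing was listed. Of the tumor members plotted, 28 lie right of the band and 9 left of it, while 4 of the 5 normal liver members lie left of it.

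In normal liver, the negative regions included those of an endolysosomal peptide carrier, a lactate carrier and a pair of ABC transporters. Slc15a3, which encodes a lysosomal peptide and histidine transporter of immune cells, had the largest member difference there in the authors' deposited table, -24.1 points over 4 CpG sites of which 1 was differentially methylated (a DMC; chromosome 19, 10843001 to 10843037, mm10, 458 bp downstream of the TSS and inside the gene span). Abca3, which loads lipid into lamellar bodies of the lung, stood at -23.3 points in the authors' deposited table (chromosome 17, 24355461 to 24355682, 3439 bp downstream of the TSS, 2 of 4 sites DMCs). Abcc12 stood at -21.8 points in that table, 53830 bp downstream of the listed TSS and inside its own span. These were the 3 normal liver members inside the span of the gene they were listed for, and all were negative. Of all 42 regions of that list inside their own gene span, 32 were negative. Slc16a1, the monocarboxylate transporter gene that handles lactate and pyruvate, had the smallest negative difference of the entire normal list, -20.05 points, at 24398 bp downstream of the TSS and beyond the end of its span, in the authors' deposited table. The positive member was that of Slc10a6, which encodes a carrier of sulfated steroids, at 20.1 points in the same table. It lay 83667 bp from the Slc10a6 start, inside the span of the phosphatase gene Ptpn13. All 5 normal liver members were downstream of the TSS, against 66 of all 107 normal liver regions (61.7%), and 4 of these members rested on 1 DMC (80%), against 66.4% of all regions of that list. In tumors the placement leaned the other way, with 15 of 38 members downstream (39.5%), against 55.5% of all tumor regions.

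No transporter gene was named in both normal liver and tumors, and 0 of the 43 members overlapped a region of another list, or came within 1 kb of one. Sharing was uncommon in the whole lists too. By either rule, 13 of all 107 normal liver regions (12.1%), 14 of all 1547 tumor regions (0.905%) and 33 of all 1711 regions (1.93%) met a region of another list, so with 5 and 38 members a count of 0 says little about transporter genes. Of all genes, 23 were named in both normal liver and tumors, which is 21.5% of the 107 named in normal liver and 1.71% of the 1347 named in tumors. Some families appeared in both. Slc15 had Slc15a3 in normal liver and Slc15a2 and Slc15a4 in tumors, and the bile acid carrier family Slc10 had Slc10a6 in normal liver and Slc10a2 in tumors. The ABC transporters had 2 negative regions in normal liver and 6 positive ones in tumors, at different genes.

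Amino acid and peptide carriers formed the largest group in tumors, with 11 regions at 9 of 71 RefSeq genes, 7 of them positive and 4 negative. This group also has the most genes among the 439 protein-coding transporter genes. In tumors, 6.83% of all transporter genes and 5.06% of all protein-coding genes were named, and 68.7% of all regions were positive. The most negative member of either list was at Slc15a2, which encodes a proton-coupled transporter of small peptides. Its region of 36 bp (chromosome 16, 36786758 to 36786793) stood at -35.9 points in the authors' deposited table, with 2 of 3 sites DMCs, 1797 bp upstream of the TSS whose flank is printed above and outside any gene span. It ranked 11 among the 484 negative tumor regions, and the next negative member stood at -25.5 points. Slc15a4, an endolysosomal histidine and peptide transporter gene, was positive at 22.8 points in the authors' deposited table, but its region lay 123938 bp from its TSS and inside the span of Tmem132c.

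The most positive member was at Slc6a4, the serotonin transporter gene. Its upstream region (chromosome 11, 76995611 to 76995803) stood at 30.6 points in the authors' deposited table, 2794 bp upstream of the TSS, with 2 of 3 sites DMCs, and ranked 60 among the 1063 positive tumor regions. Its other region (77006725 to 77006899), 8129 bp downstream of the TSS and inside the gene, stood at 23.2 points in that table, with 1 of 3 sites a DMC. Both sides of the Slc6a4 start were thus positive, 10921 bp apart. Slc18a2, the gene of the carrier that loads monoamines into vesicles, was negative at -21.6 points in the authors' deposited table, 12033 bp upstream of its TSS and outside any gene span. Serotonin is a substrate of both carriers, and their regions had opposite signs.

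Slc6a7, of the same family as Slc6a4 and a proline transporter gene of the brain, was negative. It had a region of 389 bp just upstream of its start (chromosome 18, 61015008 to 61015396, 810 bp from the TSS) at -21.3 points in the authors' deposited table, with 3 of 11 sites DMCs. It was 1 of 3 members with at least 10 CpG sites.

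In the Slc7 family, Slc7a11 carried 1 region of each sign. The gene encodes the exchanger that imports cystine in return for glutamate and so feeds glutathione synthesis. The region 17471 bp downstream of its listed TSS (chromosome 3, 50426073 to 50426142) stood at 21.04 points in the authors' deposited table, and the one 55111 bp downstream (50388255 to 50388502) at -20.7 points. Both lay inside the gene, 37570 bp apart, and each rested on 1 of 3 sites, close to the 20-point limit of the list. The cationic amino acid transporter genes Slc7a1 and Slc7a3 were at 20.5 and -22.0 points in the authors' deposited table, in that order, and their regions lay inside the spans of Mtus2 and Snx12. Slc7a14 was at 20.5 points in the same table, 154195 bp upstream.

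Organic ion, drug and bile acid carriers had 9 tumor regions at 6 of 50 RefSeq genes, 6 positive and 3 negative. In tumors, 6.83% of all transporter genes were named, and 68.7% of all regions were positive. Slc22a7 encodes an organic anion transporter of hepatocytes. Its region had the most CpG sites of any member, 25 over 373 bp (chromosome 17, 46445062 to 46445434), of which 9 were DMCs, and stood at -23.0 points in the authors' deposited table. It lay 6586 bp upstream of the Slc22a7 start and inside the span of the neighbouring kinase gene Ttbk1, so a nearest-TSS rule and a gene-span rule name different genes for it. Slc22a12, the renal urate transporter gene, had regions at 29.4 and 22.4 points in the authors' deposited table, at 142499 bp upstream and 52896 bp downstream of the TSS. The downstream one lay inside the span of Nrxn2.

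The gene of the apical sodium-dependent bile acid transporter, Slc10a2, was the nearest TSS of 3 positive regions. They stood at 22.7, 20.6 and 25.5 points in the authors' deposited table, but lay 481564, 713887 and 1047936 bp upstream of the TSS and outside any gene span. They lay in a stretch of chromosome 8 (5586795 to 6153239) with no nearer listed start. Among the organic anion transporting polypeptides, Slco5a1 stood at -25.5 points (66638 bp upstream, 3 of 5 sites DMCs) and Slco6d1 at -22.0 points (48184 bp upstream) in the authors' deposited table. Slco3a1 was positive at 23.4 points in that table, inside its own span and 264116 bp from its TSS.

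All 6 tumor regions of ABC transporters were positive, at 3 of 50 RefSeq genes, beside the 68.7% of positive regions in the whole tumor list. Of all transporter genes, 6.83% were named in tumors. Abca12 encodes a lipid transporter that keratinocytes need for the skin barrier. The region inside it (chromosome 1, 71414556 to 71414678), 232 bp downstream of the TSS and the closest to a start of all 43 members, stood at 26.2 points in the authors' deposited table, with 2 of 3 sites DMCs. A further region 57120 bp upstream stood at 20.4 points there, with 2 of 3 sites DMCs in 15 bp. Abca13, a very large member of the lipid-transporting subfamily, had a region 4104 bp upstream of its TSS at 22.0 points in the authors' deposited table. Its other regions, at 23.2 and 21.4 points in the same table, lay 574033 and 727645 bp downstream of the TSS and past the end of the gene. Abcc3, which encodes a pump that exports bile acids and glucuronides from hepatocytes to blood, stood at 20.2 points in the authors' deposited table, 32757 bp upstream and inside the span of the calcium channel gene Cacna1g.

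The neighbouring urea transporter genes Slc14a1 and Slc14a2 each had 1 tumor region, of opposite sign. The region listed for Slc14a1 (chromosome 18, 78149288 to 78149532) was at 28.7 points in the authors' deposited table, with 2 of 3 sites DMCs, 7170 bp upstream of the Slc14a1 start. The region listed for Slc14a2 (78237761 to 78237996) was at -22.2 points there, with 4 of 10 sites DMCs, 31322 bp upstream of the listed start. Both lay inside the Slc14a2 span of RefSeq, 88228 bp apart, so by gene span they are 1 positive and 1 negative region of Slc14a2.

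The remaining groups were small and, apart from Slc18a2 described above, positive. Nucleoside and nucleotide sugar carriers had 3 regions, at the nucleoside transporter gene Slc29a2 (20.01 points), the nucleotide sugar transporter gene Slc35b4 (24.3 points) and Slc35g2 (20.1 points) in the authors' deposited table. That of Slc35g2 lay 1025 bp downstream of the TSS, inside the gene, with 2 of 8 sites DMCs. Sugar carriers had the myo-inositol cotransporter gene Slc5a3 at 27.0 points (62482 bp upstream) and the glucose transporter family gene Slc2a10 at 22.4 points (38961 bp from its TSS) in the authors' deposited table. The sodium/proton exchanger gene Slc9a4 was at 25.9 points in that table, inside its span and 47230 bp from its TSS, and the chloride/bicarbonate exchanger gene Slc4a3 at 23.3 points, 51222 bp away. Slc19a2, a thiamine transporter gene, was at 20.7 points (21454 bp upstream), and Slc25a4, the gene of a mitochondrial ADP/ATP carrier, at 25.2 points (41482 bp upstream) in the authors' deposited table. Metal carriers (33 RefSeq genes) and phosphate, sulfate and citrate carriers (10 genes) had 0 regions in every list. Of all protein-coding genes, 5.06% were named in tumors, 0.420% in normal liver and 0.228% in non-tumor liver. With so few genes in these groups, a count of 0 says little about them.

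The split of signs was read by distance from the TSS and side of it. Within 10 kb of the TSS, 6 of 9 members were positive, against 59.6% of all tumor regions there. At 10 to 100 kb, 14 of 20 were positive, against 67.7%, and beyond 100 kb all 9 were, against 80.4%. These 9 named 6 genes, and 3 of them belonged to Slc10a2. Upstream of the TSS 15 of 23 members were positive and downstream 14 of 15, while all tumor regions differed little by side, at 67.9% and 69.5%. The downstream exception was the Slc7a11 region at -20.7 points. The split by side was chosen after seeing the values and was not tested. More tumor members than regions of the whole list lay outside any gene span, 55.3% against 44.9%, and fewer lay inside the span of the gene they were listed for, 21.1% against 31.5%; these shares were not tested. Their median distance to the TSS was 45116 bp, against 32379 bp.

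**Figure D2:**
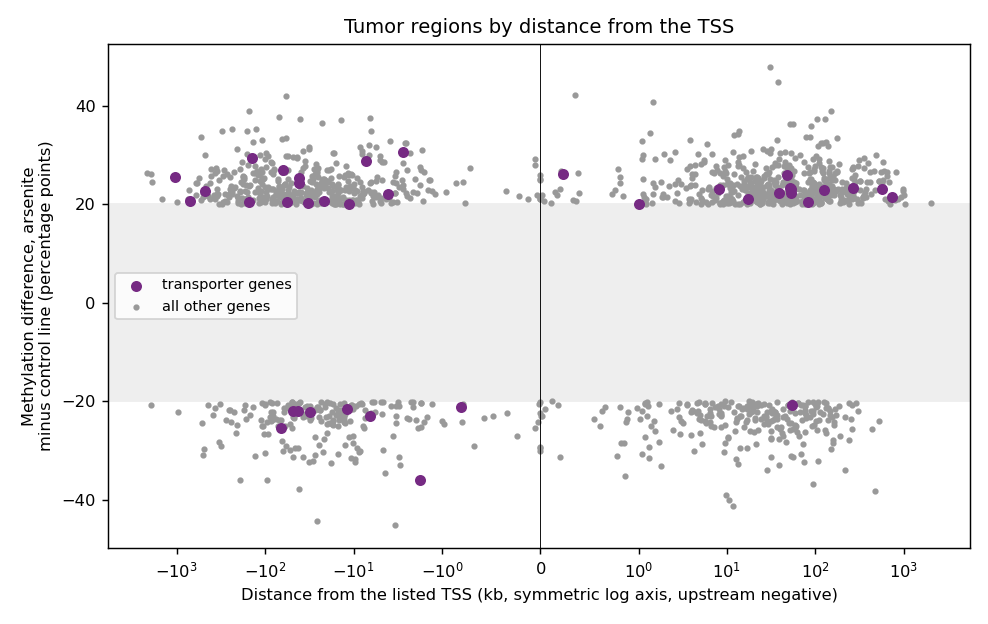
Methylation difference (percentage points, vertical axis) against distance from the listed TSS (kb, symmetric log axis, upstream negative) for the tumor list; purple points are the 38 transporter regions, grey points all other regions, and the grey band marks the 20 points below which nothing was listed. The Slc15a2 region at -35.9 points stands apart from the other 8 negative members, and all 9 members beyond 100 kb are positive.

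By number of CpG sites, the 3 members with at least 10 CpG sites, at Slc22a7 (25 sites), Slc6a7 (11 sites) and Slc14a2 (10 sites), were all negative, where 48.8% of all 203 tumor regions of that kind were positive. Of the 35 members with fewer sites, 29 were positive (82.9%), against 71.7% of all such tumor regions. Most members were small, with a median of 4 CpG sites over 102 bp, against 4 sites over 139 bp in the whole tumor list. A single DMC supported 16 of the 38 tumor members (42.1%), against 35.6% of all tumor regions, and in 0 of the 43 members were all sites DMCs.

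**Figure D3:**
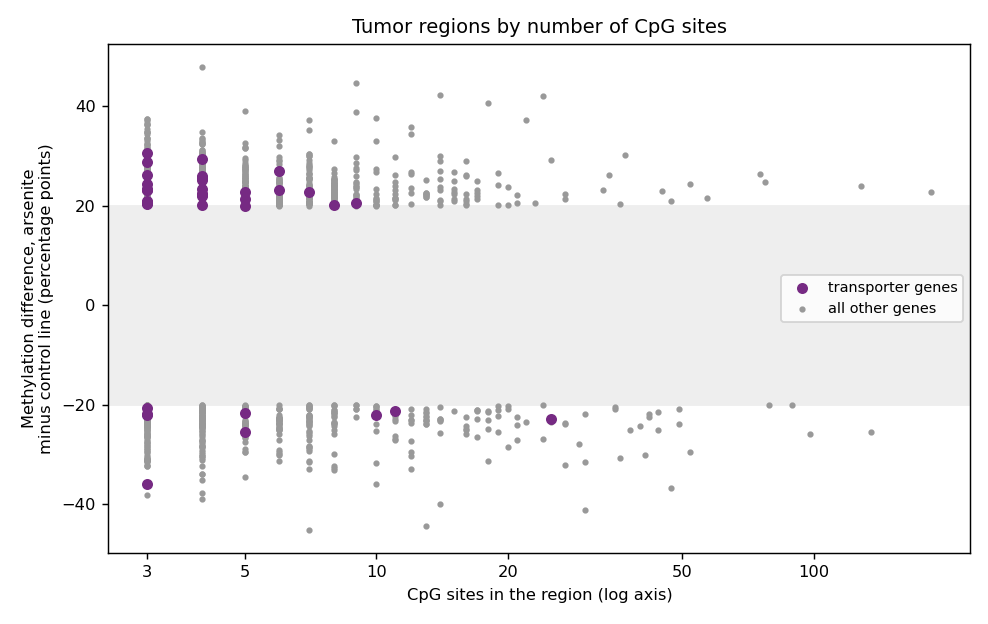
Methylation difference (percentage points, vertical axis) against the number of CpG sites (log axis) for the tumor list; purple points are the 38 transporter regions, grey points all other regions, and the grey band marks the 20 points below which nothing was listed. The 3 purple points at 10 sites or more lie below the band.

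In tumors the 38 members named 30 genes, while all 1547 regions named 1347 genes. Of the 35 member genes, 6 were named by more than 1 region, all in tumors, and these held 14 regions. At 5 of them, namely Abca12, Abca13, Slc10a2, Slc22a12 and Slc6a4, every region was positive, and at Slc7a11 the signs differed. Of all tumor regions 68.7% were positive, and of those beyond 100 kb from the TSS 80.4% were. Among the 6 genes, only at Slc6a4 did all of the gene's regions lie within 10 kb of the TSS. Regions of 1 gene share a stretch of chromosome, whereas the interval of the positive share takes regions as independent. Counting each gene once by the sign of its summed differences gave 22 positive and 8 negative genes in tumors.

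**Figure D4:**
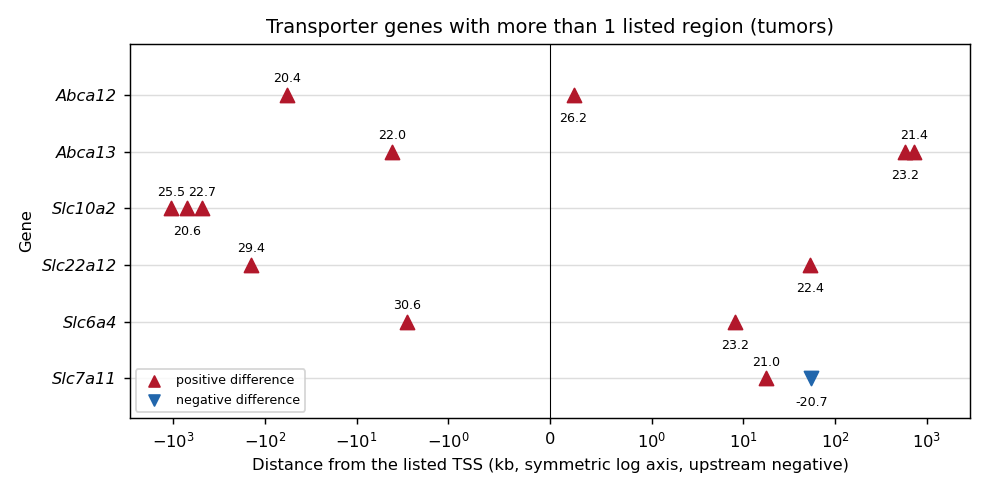
Distance of each region from the listed TSS (kb, symmetric log axis, upstream negative) for the 6 genes with more than 1 tumor region; red triangles pointing up are positive and blue triangles pointing down negative differences, with the value in percentage points beside each. All regions but the Slc7a11 region at -20.7 points are positive, and those of Slc10a2 lie 481564 bp or more from the start.

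A list of 34 genes of hepatic uptake and export and of arsenic transport was looked up as well. It holds bile acid, organic ion and glucose carriers, the ABC pumps of the hepatocyte, phosphate carriers, which also admit arsenate, and the aquaporins that admit arsenite. In tumors 3 of the 34 genes were named, Slc10a2, Slc22a7 and Abcc3, with 4 positive and 1 negative region, and in normal and non-tumor liver 0 were. The 3 genes are 8.82% of the list, beside 5.06% of all protein-coding genes named in tumors, and 68.7% of all tumor regions were positive. None of these 5 regions lay inside the span of its gene. Abcc4, also on the list, held a tumor region inside its span at -20.3 points, which was listed for Mir6391. The main hepatocyte uptake carriers of bile acids and organic anions (Slc10a1, Slco1b2), the canalicular pumps (Abcb11, Abcc2, Abcb4, Abcg5, Abcg8), the glucose transporter gene Slc2a2 and the arsenite-admitting aquaporin gene Aqp9 had 0 regions by nearest TSS in any list. A gene absent from the lists may have been uncovered, or may differ by less than the listing limit.

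Some regions lay inside a transporter gene but were listed under another gene, 1 in normal liver and 3 in tumors. The normal liver region and 1 of the tumor regions were at the same place, inside Slc9a2, the sodium/proton exchanger gene that starts 50980 bp past the end of Slc9a4, and were listed for Mfsd9. In tumors this region (chromosome 1, 40767882 to 40767951, 934 bp from the end of the Slc9a2 span) stood at -25.9 points in the authors' deposited table, with 4 of 8 sites DMCs. In normal liver (40767911 to 40767950) it stood at 21.8 points there, with 2 of 4 sites DMCs. The normal region lay wholly within the tumor region, and its sign was opposite if the lists share 1 sign rule, which no source used here states. The other tumor regions were inside Slc35f4 (26.5 points) and inside Abcc4 (-20.3 points, listed for Mir6391), the gene of a pump that exports cyclic nucleotides and bile acids, in the authors' deposited table. By gene span, transporters would have 4 regions in normal liver and 12 in tumors, of which 3 and 9 are among the members. Such mismatches were common in the whole lists. Of all regions, 29 of 107 in normal liver and 365 of 1547 in tumors lay inside the span of another gene only.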

How the data were processed

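Reduced-representation bisulfite sequencing libraries were made from liver DNA digested with MspI, per the labels' protocols. The submitters' processing notes name build mm10 and the tools Bismark, Trim Galore, bedtools (2.25.0) and methylKit. How regions were called, with which thresholds and coverage, and the depth per sample were not given in the sources used here. The authors' deposited lists give, per region, a methylation difference in percentage points, CpG and DMC counts, length, and nearest TSS with its distance. All 1711 regions differed by at least 20 points, with at least 3 CpG sites and 1 DMC. The recomputed distance was within 1 bp of the listed one in all 1711, and coordinates are 1-based.

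Members were selected by symbol, and all 43 matched RefSeq (GRCm38.p6) by symbol. Gene spans, which do not separate exons from introns, came from that table. For gene shares, 1695 listed entries matched by accession or symbol. Only counts, medians and exact intervals were computed (Python 3.11.15, scipy 1.17.1), tested on simulated data; no test over samples was possible.

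Described singly were all normal liver members and, in tumors, members within 10 kb of a TSS, with at least 10 CpG sites, among the 10 largest of each sign, at genes with several regions, or in the hepatic list; the rest appear briefly by group. The 3 kb limit for printed sequences and the split by side of the TSS were chosen after seeing the values. Members and lists were chosen with earlier results of these data known. Some genes are counted but not reported singly here. Alternatives were a minimum of 2 DMCs, a minimum of 25 points, gene span in place of nearest TSS, a 10 kb limit, genes counted once and other overlap rules; a turned sign and a 100 kb limit were added after seeing the data.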

Additional observations from a re-analysis of the deposited data

How the results depend on the processing

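Counts of tumor members moved with most stricter choices, while the share of positive tumor members stayed between 66.7% and 80% under the alternatives other than a turned sign. The 29 positive and 9 negative tumor members became 17 and 5 with at least 2 DMCs, 8 and 2 with at least 25 points, 8 and 4 by gene span, 6 and 3 within 10 kb of the TSS, and 9 and 29 with the sign turned, which makes the positive share 23.7%. In normal liver, the 1 positive and 4 negative members became 0 and 1 with at least 2 DMCs, 0 and 0 with at least 25 points, 0 and 2 within 10 kb, and 4 and 1 with the sign turned; the positive share was 0%, undefined, 0% and 80% in these settings. The share of transporter genes named in tumors, 6.83%, against 5.06% of all protein-coding genes, was 2.28% by gene span, against 2.74%, and 1.82% within 10 kb, against 1.41%. Of the 63 alternative values, 24 are the moves given above. The other 39 were counts within 1.5 times the main count or shares inside its exact interval, and 18 of these, for non-tumor liver and for overlap between lists, were 0 in the main setting and the alternative. The remaining 21 include moves such as 20 positive tumor members in place of 29 without members beyond 100 kb. In normal liver, 0.456% of transporter genes were named within 10 kb in place of 1.14%, against 0.151% and 0.420% of all protein-coding genes. By gene span the normal liver share was 0.911%, against 0.329% of all protein-coding genes. No paired analysis was possible because the lists hold no per-sample values, and for the same reason no replicate could be left out. Depth is unknown here, so no detection limit per site is given.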

Other observations

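Transport genes outside the Slc and Abc symbols were also listed. Of the ATP-driven ion and lipid pumps (84 RefSeq genes named Atp1 to Atp13), 5 genes had 6 tumor regions, 2 positive and 4 negative. The 5 genes are 5.95% of that list, near the 5.06% of all protein-coding genes named in tumors, and 31.3% of all tumor regions were negative. Atp2c2, a calcium and manganese pump gene, stood at -24.4 points and the proton pump subunit gene Atp6v1g3 at -20.3 points in the authors' deposited table. Atp8a2, a lipid flippase gene, was positive at 23.1 points, 198 bp downstream of its TSS and inside the gene, and the proton/potassium pump gene Atp12a at 23.2 points inside its span, in the authors' deposited table. Non-tumor liver, which had no Slc or Abc region, had 1 region in this list, inside the calcium pump gene Atp2b2 at -22.7 points in that table. It lay 56025 bp upstream of the listed TSS. This gene is 1.19% of the list, beside 0.228% of all protein-coding genes named in non-tumor liver. A count of 1 says little.

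Aquaporins (11 RefSeq genes) had 2 positive tumor regions, at Aqp6 (25.2 points, 2021 bp upstream) and Aqp4 (20.8 points, 58070 bp downstream) in the authors' deposited table. The Aqp6 region lay inside the Aqp6 span and that of Aqp4 inside the span of Gm30230. The 2 genes are 18.2% of the aquaporins, beside 5.06% of all protein-coding genes named in tumors, and 68.7% of all tumor regions were positive. Of 42 transporter genes with other names, Mfsd4 was negative in tumors (-21.9 points in that table), and Mfsd9 is the entry inside Slc9a2 given above. The 2 genes named in tumors are 4.76% of these 42. The 8 nuclear receptor and liver factor genes that control transporter genes had 0 regions in every list. With 8 genes, and 5.06% of all protein-coding genes named in tumors, a count of 0 says little.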
